A study of Mus musculus with 9 samples.

Results

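The 36 genes described here encode the glucose transporters, the enzymes of glycolysis, the proteins that handle pyruvate and lactate, the oxygen sensors and a set of hypoxia response proteins. They were chosen by gene symbol, 36 of the 18639 entries of each file, and all 36 were found. Transcript levels were measured by bulk RNA sequencing in tumours of CT2A, a mouse glioma line that the labels call a glioblastoma (GBM) model, harvested from mouse brains on day 5 after resection. Each of 3 treatment groups had 3 libraries: sECM only, GFP-TC, the control cells, and ThTC, cells that secrete IFNβ and GM-CSF. The labels do not expand these names and do not say whether the cells were given in sECM. They give neither the strain and age of the mice nor the promoters that drive GFP and the factors, and nothing in them states that each library was a different mouse. All p-values therefore measure the spread between libraries only. Levels are given in TPM, a transcript abundance unit, which correct for transcript length and add up to the same total in every library. They carry no read depth; the labels state 4.47 Gb of sequence per sample. All 36 genes had at least 1 TPM in 3 or more libraries and were tested with 13829 genes in all.

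Glycolysis splits glucose into pyruvate, and lactate dehydrogenase then turns pyruvate into lactate, which leaves the cell through monocarboxylate transporters. Gliomas are known for high rates of this route even where oxygen is present, while neurons carry isozymes of their own, such as a neuronal enolase. Under low oxygen, prolyl hydroxylases stop marking the alpha subunit of hypoxia-inducible factor (HIF) for breakdown, and HIF then raises transcription of glycolytic and other genes by binding a short core sequence in their promoters. HIF is regulated mainly as a protein, so the transcript of its subunit is a poor measure of its activity.

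The labelled tissue was checked against marker genes. The progenitor and glioma markers were present in every library, with Vim at 3262 to 4753 TPM and Sox2 at 117 to 240.3 TPM. They did not move together. Sox2 was lowest in ThTC 3 and GFP-TC 3, whereas Olig2 (2.09 to 28.1 TPM) and Ptprz1 (1.07 to 13.55 TPM) were highest there. The libraries differed in markers of normal brain. A brain score, the mean log2 level of 22 markers of neurons, oligodendrocytes and astrocytes after centring each gene, was 1.76 in ThTC 3 and 1.5 in GFP-TC 3. It lay between -1.51 (GFP-TC 1) and 0.19 (sECM only 1) in the other 7 libraries. Summed neuron markers ran from 350.2 to 499.9 TPM in sECM only, from 223 to 1240.2 TPM in GFP-TC and from 309 to 1438 TPM in ThTC, and none of the 22 markers was at 0 in any library. In bulk tissue, fewer cells of a type and less RNA per cell cannot be told apart.

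Promoter sequences are shown for 6 genes whose levels carry the pattern described further on: the enolases and lactate dehydrogenases, whose isozymes moved apart between libraries, and Bnip3 and Ankrd37 of the hypoxia response. They were picked after their values were seen. Each sequence is the 250 bases before the most upstream start that RefSeq's promoter table lists for the gene (GRCm38.p6), 5′ to 3′ on the strand of the gene. Capitals mark the HIF core motifs ACGTG and GCGTG on either strand, so that CACGT and CACGC are the same cores read from the other strand. CACGTG holds 2 overlapping matches and is also the E-box bound by other factors.
Ldha: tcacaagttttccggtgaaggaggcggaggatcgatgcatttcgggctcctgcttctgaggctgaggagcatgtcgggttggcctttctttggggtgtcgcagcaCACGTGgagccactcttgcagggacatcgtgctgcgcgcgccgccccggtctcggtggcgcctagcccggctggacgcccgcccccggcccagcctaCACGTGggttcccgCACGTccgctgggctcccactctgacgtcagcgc
Ldhb: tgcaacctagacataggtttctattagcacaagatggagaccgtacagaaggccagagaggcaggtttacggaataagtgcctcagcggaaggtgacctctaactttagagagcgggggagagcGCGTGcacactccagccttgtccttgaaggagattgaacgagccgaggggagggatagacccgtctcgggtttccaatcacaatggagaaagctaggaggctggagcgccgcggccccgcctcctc
Eno1: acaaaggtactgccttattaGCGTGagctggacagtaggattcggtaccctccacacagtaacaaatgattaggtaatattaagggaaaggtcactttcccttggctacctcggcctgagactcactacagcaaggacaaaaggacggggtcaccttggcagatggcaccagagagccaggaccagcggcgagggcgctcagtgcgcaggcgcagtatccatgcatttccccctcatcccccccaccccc
Eno2: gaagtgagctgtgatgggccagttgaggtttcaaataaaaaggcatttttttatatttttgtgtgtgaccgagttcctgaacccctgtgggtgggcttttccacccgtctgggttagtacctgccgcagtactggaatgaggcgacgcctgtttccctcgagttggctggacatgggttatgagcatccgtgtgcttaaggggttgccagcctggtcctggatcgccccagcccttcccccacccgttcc
Bnip3: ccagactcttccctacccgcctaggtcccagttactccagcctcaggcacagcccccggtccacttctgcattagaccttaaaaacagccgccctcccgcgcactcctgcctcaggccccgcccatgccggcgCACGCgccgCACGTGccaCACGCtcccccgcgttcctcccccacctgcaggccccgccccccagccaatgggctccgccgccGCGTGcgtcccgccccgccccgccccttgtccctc
Ankrd37: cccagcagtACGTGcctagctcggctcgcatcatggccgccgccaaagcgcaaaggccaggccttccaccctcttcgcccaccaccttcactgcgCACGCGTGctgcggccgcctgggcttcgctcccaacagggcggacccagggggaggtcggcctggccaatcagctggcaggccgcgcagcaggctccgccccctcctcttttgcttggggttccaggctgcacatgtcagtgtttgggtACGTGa
Ldha (chr7:46845554-46845803, plus strand) and Bnip3 (chr7:138909507-138909756, minus strand) each held 5 matches, and Ankrd37 (chr8:45999851-46000100, minus strand) held 4. Ldhb (chr6:142507958-142508207, minus strand) and Eno1 (chr4:150236458-150236707, plus strand) held 1 each, and Eno2 (chr6:124769674-124769923, minus strand) held 0. The other listed Eno1 starts, further downstream, had 2 matches each, and the other listed Ldha start, also downstream, had 1. Of the 36 genes, 33 had a promoter in the table, and 30 of these (90.9%) had at least 1 match in a window, against 60.0% of the tested genes in the table. The genes without a match were Eno2, Gpi1 and Tpi1. No window was found for Slc2a3, Bnip3l and Ndrg1. By window, 37 of 45 (82.2%) held a match, against 38.6% of all 32851 windows of this length and 53.8% of the windows of tested genes. The windows of the 36 genes were also richer in G and C (median 62.8% against 52.4% of all windows and 59.6% of those of tested genes). Of all windows with a GC content between their quartiles, 55.7% held a match, and by gene 57.6%. The set was listed as glycolysis and hypoxia response genes, so its higher share is no independent result. A match describes the letters only.

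Several glycolytic enzymes were among the most abundant transcripts of the tumours. Others ranked lower by mean TPM, such as Pfkl (964th), Hk1 (1417th), Pfkp (1915th), Pfkm (4478th) and Hk2 (6016th). Gapdh, the glyceraldehyde-3-phosphate dehydrogenase, had the highest mean TPM of all tested genes and lay between 9539 TPM (GFP-TC 3) and 13129.8 TPM (sECM only 1). Eno1, the ubiquitous enolase, ranked 22nd (2551 to 3509 TPM), Aldoa, the aldolase of most tissues, 35th (2119 to 2764 TPM), Pkm, pyruvate kinase, 44th (2033 to 2678 TPM) and Ldha, the lactate dehydrogenase subunit that favours lactate, 77th (1078 to 1878 TPM). Several of these genes have near-identical copies in the annotation, such as processed copies of Gapdh, Ldha, Pgk1, Pgam1 and Aldoa and the Eno1 copy Eno1b, and the counting rule for shared reads is not given in the sources used here, so their levels are uncertain to that extent. The 16 enzymes from hexokinase to lactate dehydrogenase (without the regulators Pfkfb3 and Pfkfb4) together took 2.16% of all TPM in GFP-TC 3 and 2.31% in ThTC 3, and 2.54% to 2.85% in the other 7 libraries. Gapdh alone made up 42.8% to 46.1% of that sum.

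The range over the 9 libraries differed widely between the genes. The narrowest ranges over the 9 libraries belonged to Gpi1, glucose-6-phosphate isomerase, Aldoa, and the lactate transporter gene Slc16a1. Gpi1 was at 810.0, 673 and 769.9 TPM in sECM only, 687, 810.2 and 649.5 TPM in GFP-TC, and 771, 723 and 703 TPM in ThTC. Its highest library was 1.25-fold above its lowest, and the groups overlapped. Aldoa was at 2666, 2254 and 2499 TPM in sECM only, 2532, 2546 and 2119 TPM in GFP-TC, and 2405, 2764 and 2539 TPM in ThTC, and Slc16a1 at 83.9, 80.7 and 89.7 TPM, 78.3, 90.1 and 87.6 TPM, and 82.2, 68.2 and 76.2 TPM, in the same order. Their highest libraries lay 1.30-fold and 1.32-fold above their lowest. The widest range was that of Eno2, the neuronal enolase, at 46.0, 24.7 and 27.1 TPM in sECM only, 10.4, 53.7 and 129 TPM in GFP-TC, and 11.5, 36.7 and 164 TPM in ThTC. It spanned 15.8-fold, with ThTC 3 and GFP-TC 3 highest and GFP-TC 1 and ThTC 1 lowest, the order of the brain score at both ends. Slc2a3, the glucose transporter of neurons, was at 5.54, 4.16 and 4.50 TPM in sECM only, 2.25, 7.02 and 15.3 TPM in GFP-TC, and 2.34, 8.19 and 17.9 TPM in ThTC, a 7.95-fold span with the same libraries at its ends. Ldhb, the subunit that favours the return of lactate to pyruvate, was at 96.02, 81.7 and 67.5 TPM in sECM only, 58.9, 95.03 and 166 TPM in GFP-TC, and 60.55, 99.3 and 235 TPM in ThTC. It spanned 3.99-fold, lowest in GFP-TC 1 and highest in ThTC 3. The part of the brain markers in these ranges was not tested. The median log2 range of the 36 genes over the libraries was 0.73, against 0.65 for all tested genes, and for 25 of the 36 it was under 1.

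**Figure D1:**
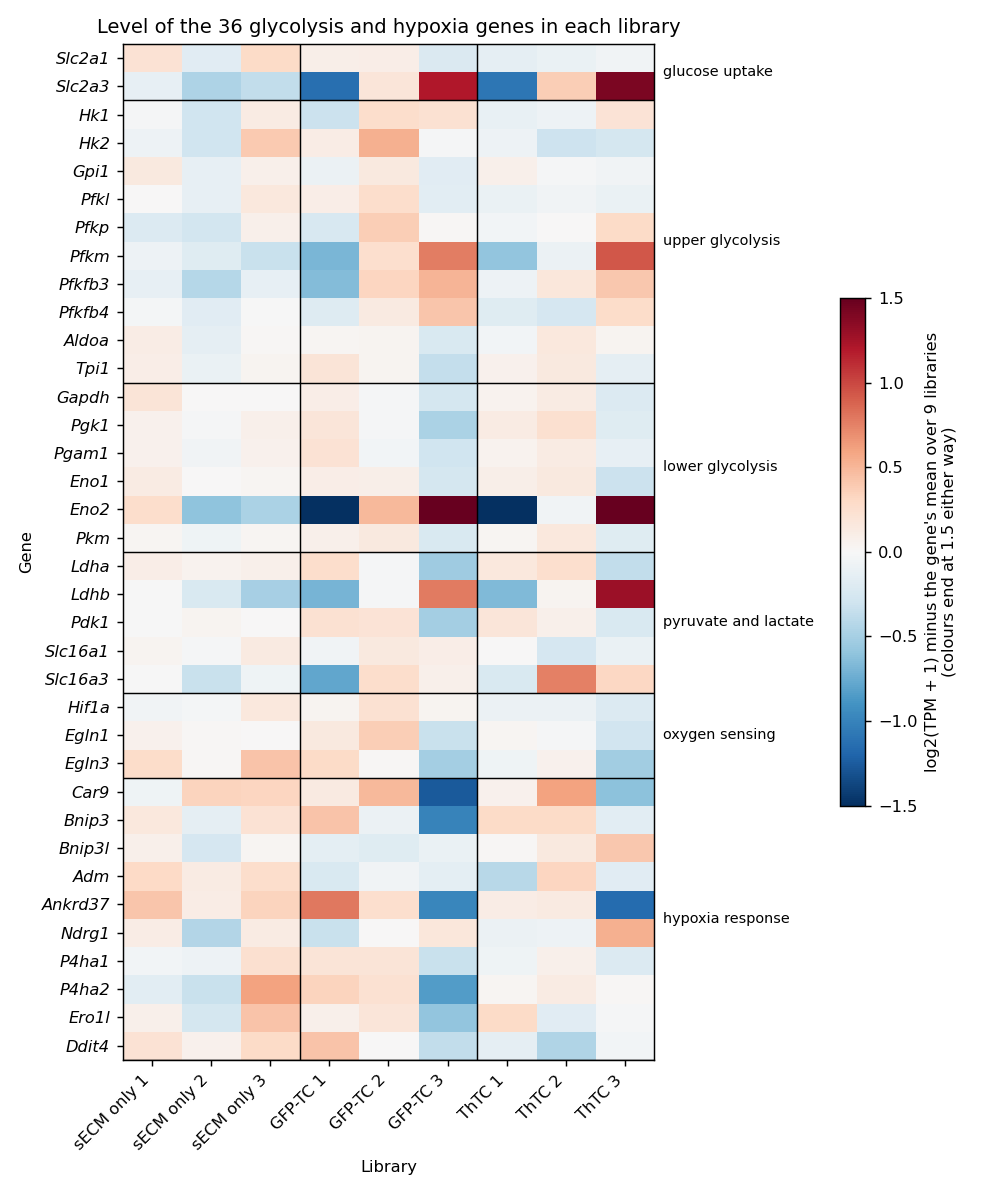
Level of each of the 36 genes (rows, grouped by role) in each of the 9 libraries (columns, 3 per group), as log2(TPM + 1) minus the gene's own mean. ThTC 3 and GFP-TC 3 are red for Slc2a3, Pfkm, Eno2 and Ldhb and blue for most of the lower glycolysis and oxygen sensing rows, whereas no row separates all 3 groups.

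The 2 libraries with the highest brain scores stood at an end of the range for many of the genes. In ThTC 3 and GFP-TC 3 alike, 14 of the 36 genes (38.9%) were below all other 7 libraries, against 4.14% of all tested genes, and 7 (19.4%) were above them, against 23.9%. Those below were Tpi1, Gapdh, Pgk1, Pgam1, Eno1 and Pkm of glycolysis, Ldha and Pdk1 of pyruvate handling, the prolyl hydroxylase genes Egln1 and Egln3, and Car9, Bnip3, Ankrd37 and P4ha1. Those above were Slc2a3, Pfkm, Pfkfb3, Pfkfb4, Eno2, Ldhb and Ndrg1. Both the count below and its background moved with scaling: the count was 15 with median-of-ratios scaling, against 11.6% of all tested genes, and 10 (27.8%) with quantile normalization, against 22.5%. The count above was 7 (20.3% of all tested genes) and 4 (14.8%). Under all 3 scalings 8 genes lay below, namely Pgk1, Ldha, Pdk1, Egln1, Egln3, Car9, Ankrd37 and P4ha1, and 4 lay above, namely Slc2a3, Pfkm, Eno2 and Ldhb. These libraries were singled out after the values were seen, so the counts are a description with no test. On unscaled TPM, GFP-TC 3 was the lowest of the 9 libraries for 17 of the 36 genes. The same share over all tested genes was not counted, so this is not shown to be particular to the set.

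The plain TPM ratio of paired isozymes within a library does not depend on a scaling factor. Eno1 over Eno2 was 75.6, 129.9 and 119 in sECM only, 328, 62.8 and 20.5 in GFP-TC, and 293, 95.5 and 15.5 in ThTC. Ldha over Ldhb was 17.3, 19.9 and 24.3 in sECM only, 31.9, 16.2 and 6.50 in GFP-TC, and 28.8, 18.7 and 5.16 in ThTC. Slc2a1, the transporter of tumours, astrocytes and vessels, exceeded Slc2a3 by 32.9-fold, 33.3-fold and 42.3-fold in sECM only, 73.9-fold, 23.9-fold and 8.73-fold in GFP-TC, and 60.8-fold, 17.8-fold and 8.46-fold in ThTC. In both, as in Eno1 over Eno2, ThTC 3 and GFP-TC 3 were the lowest libraries and GFP-TC 1 and ThTC 1 the highest. Pfkl, the liver-type phosphofructokinase, exceeded the muscle and brain type Pfkm by 4.47-fold, 4.42-fold and 5.99-fold in sECM only, 7.43-fold, 4.26-fold and 2.20-fold in GFP-TC, and 6.04-fold, 4.36-fold and 2.05-fold in ThTC. Hk2, the hexokinase raised in many tumours, stood at 0.212, 0.219 and 0.270 of the level of Hk1, the hexokinase of most tissues, in sECM only, at 0.298, 0.271 and 0.186 in GFP-TC, and at 0.226, 0.186 and 0.157 in ThTC. In these 5 ratios ThTC 3 was lowest and GFP-TC 1 highest. The sixth, Slc16a3 over Slc16a1, compares the lactate exporter of glycolytic cells with the widespread transporter. It was 0.300, 0.247 and 0.270 with sECM only, 0.182, 0.340 and 0.306 with GFP-TC, and 0.262, 0.637 and 0.413 with ThTC, lowest in GFP-TC 1 and highest in ThTC 2.

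The tests used log2 ratios with 1 added to each TPM, which depend on scaling where a gene is low. Every group comparison of these ratios overlapped. Over 18 comparisons (6 ratios, 3 pairs of groups) the exact two-sided permutation p ran from 0.3 to 1.0 and the adjusted p from 0.96 to 1.0; 3 against 3 libraries cannot go below 0.1. The lowest p belonged to Hk2 over Hk1 and Slc16a3 over Slc16a1 in the comparisons with ThTC. The log2 ratio of Slc16a3 over Slc16a1 was -1.26 ± 0.62 in the ThTC and -1.86 ± 0.46 in the GFP-TC libraries (SD, n = 3; exact permutation p = 0.3), a difference of 0.60 within the spread between libraries. It was 0.29 without ThTC 2, 0.34 without GFP-TC 1 and 0.91 without ThTC 1.

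**Figure D2:**
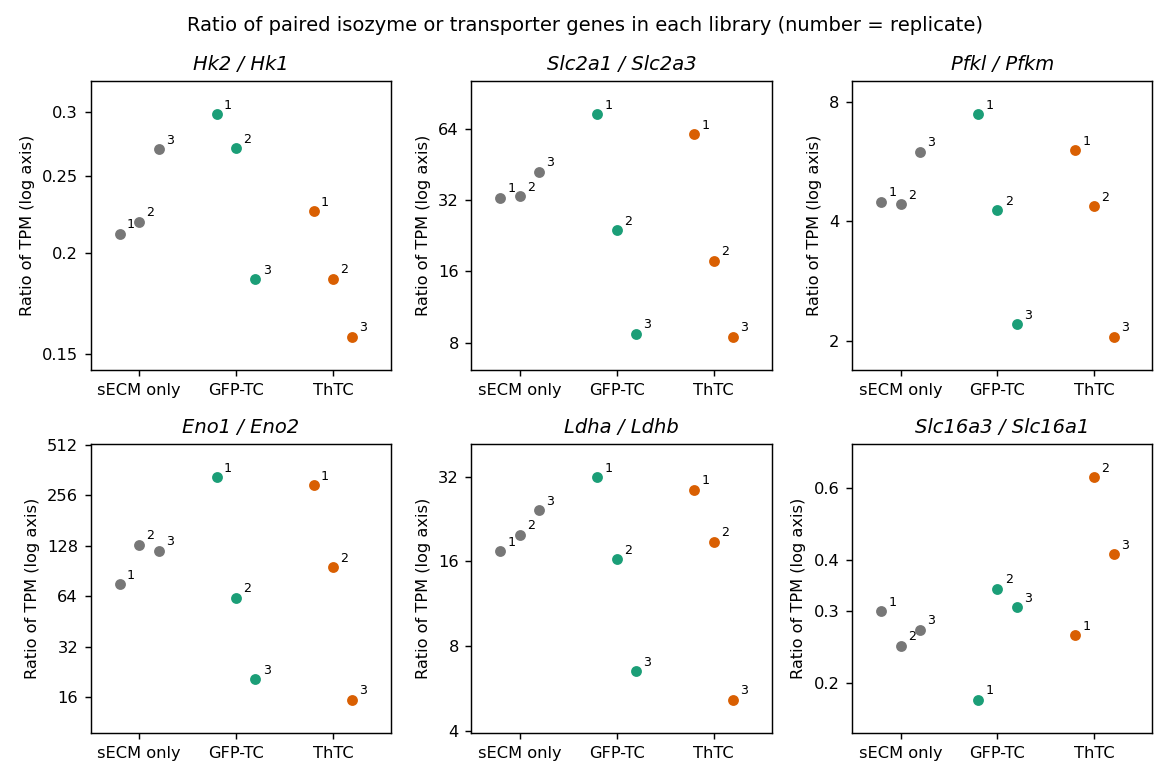
Ratio of the TPM of paired genes in each library (points, with the replicate number; vertical log axes that differ between panels), by group. GFP-TC and ThTC libraries spread over most of each axis, with replicate 3 of both low in the first 5 ratios, and the 3 sECM only libraries lie within the range of the other 6.

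The comparison of ThTC with GFP-TC addresses what the secreted factors add to the cells. None of the 36 genes passed the adjusted threshold of 0.05 in limma, as was the case for all 13829 genes (0% called). At an unadjusted p under 0.05 there were 2 of the 36 (1 higher, 1 lower), against 14.9% of all tested genes (2.03% higher, 12.9% lower). The mean was higher with ThTC for 21 and lower for 15, and the median log2 fold change was 0.04, against -0.10 for all genes, of which 33.8% were higher. Scaling moved that split: 28 were higher with median-of-ratios scaling (53.7% of all genes, and a median of all genes of 0.02) and 18 with quantile normalization (44.2%). The split also rested on GFP-TC 3, since 12 of the 36 were higher and the median was -0.08 without it.

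Bnip3l (chromosome 14, 66985238 to 67008877, GRCm38.p6), a receptor that marks mitochondria for removal, had the smallest p of the 36. It was at 45.02, 49.7 and 59.2 TPM in ThTC, 40.2, 39.3 and 41.7 TPM in GFP-TC, and 47.2, 37.4 and 45.8 TPM in sECM only. All ThTC libraries lay above all GFP-TC libraries, as for 2.2% of all tested genes in this direction, but not above those of sECM only. The mean was 51.3 ± 7.24 TPM in ThTC and 40.4 ± 1.197 TPM in GFP-TC (SD, n = 3), a log2 fold change of 0.33 (SE 0.12, 95% interval 0.05 to 0.61, limma adjusted p = 0.316). The 5 tested red cell markers are genes of a cell type that also expresses Bnip3l. They summed to 147 to 524 TPM in ThTC and 186 to 1206 TPM in GFP-TC, ranges that overlapped. All 5 had a lower mean log2 level with ThTC, unlike Bnip3l, with a median log2 fold change of -1.15. The part of red cells in this result was not tested.

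Hif1a (chromosome 12, 73901324 to 73947554), the oxygen-regulated subunit of HIF, was at 103.8, 104.3 and 95.6 TPM in ThTC, 114, 129 and 114 TPM in GFP-TC, and 107, 108 and 124 TPM in sECM only. The ThTC libraries were the lowest 3 of the 9 and overlapped neither other group, as for 16.9% of all tested genes against GFP-TC. The mean was 101 ± 4.90 TPM in ThTC and 119 ± 9.02 TPM in GFP-TC (SD, n = 3), a log2 fold change of -0.23 (SE 0.09, 95% interval -0.43 to -0.03, limma adjusted p = 0.316). Hk2 (chromosome 6, 82725025 to 82774454) was at 26.1, 22.2 and 22.8 TPM in ThTC, 29.9, 40.6 and 27.3 TPM in GFP-TC, and 26.2, 22.2 and 36.7 TPM in sECM only. It was lower in all ThTC than in all GFP-TC libraries, with a log2 fold change of -0.43 (SE 0.20, limma adjusted p = 0.356), and overlapped with sECM only. These 3 genes kept their sign under all 20 alternatives run, and none reached the threshold in any. The filters, the fit of the 6 libraries compared, the replicate blocks and leaving out an sECM only library cannot change these fold changes. The sign is therefore informative only for the remaining alternatives.

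Among all tested genes, 33.8% were higher with ThTC than with GFP-TC, with a median log2 fold change of -0.10. With median-of-ratios scaling these were 53.7% and 0.02, with quantile normalization 44.2% and -0.03, and without GFP-TC 3, 41.5% and -0.07. By role, the members of oxygen sensing all had lower means with ThTC than with GFP-TC (0 of 3 higher, and 1 of 3 with median-of-ratios scaling). Their median was -0.15, and it was -0.0148 with median-of-ratios scaling, -0.082 with quantile normalization and -0.32 without GFP-TC 3. The hypoxia response genes went the other way, with 7 of 10 higher and a median of 0.15 (0.28 with median-of-ratios scaling, 0.26 with quantile normalization), but this turned with GFP-TC 3: without that library 3 of 10 were higher and the median was -0.16. In GFP-TC 3 Car9, the cell surface carbonic anhydrase, was at 19.4 TPM, Bnip3, the second mitochondrial receptor, at 119.8 TPM, P4ha2, a collagen prolyl hydroxylase subunit, at 11.2 TPM and Ero1l, an oxidase of the endoplasmic reticulum, at 48.7 TPM. In ThTC 3, of similar brain score, they were at 31.0, 216, 21.1 and 73.0 TPM. Car9 was at 45.6, 60.8 and 60.3 TPM in sECM only, 52.7 and 67.4 TPM in the other GFP-TC libraries and 50.4 and 73.3 TPM in the other ThTC libraries, so the groups overlapped. Upper glycolysis had 5 of 10 higher (7 with median-of-ratios scaling). Lower glycolysis had 4 of 6 higher (6 with median-of-ratios scaling, 2 with quantile normalization, 1 without GFP-TC 3), and pyruvate and lactate 4 of 5 (3 with quantile normalization, 2 without GFP-TC 3).

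**Figure D3:**
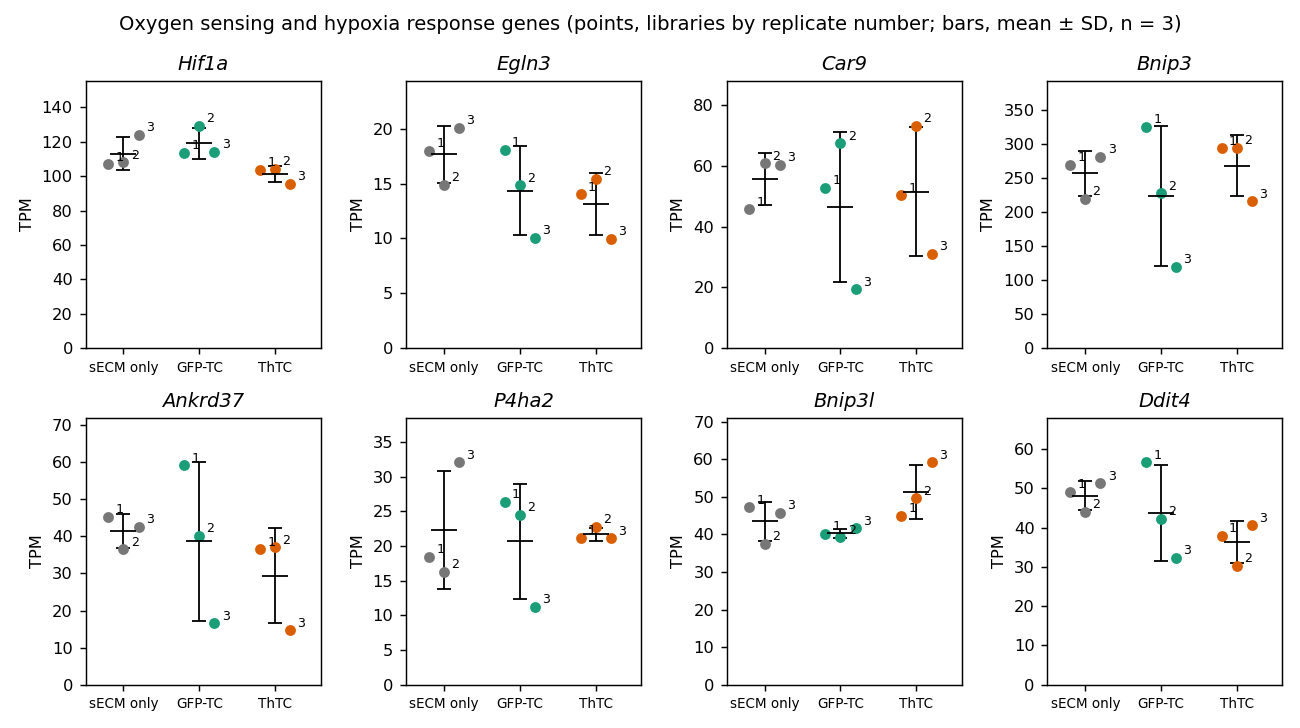
TPM of 8 oxygen sensing and hypoxia response genes in each library (points, with the replicate number) and the mean with its SD (bars, n = 3). GFP-TC 3 is the lowest point of its group for every gene but Hif1a and Bnip3l, and the ThTC points for Hif1a lie below all others.

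Same-numbered GFP-TC and ThTC libraries were treated here as pairs, unlike in the main fit, although the labels give the numbers no meaning. Over all tested genes, their deviations from the group means correlated at 0.74, 0.12 and 0.87 for numbers 1, 2 and 3. ThTC 2 correlated more with GFP-TC 1 (0.38) than with GFP-TC 2, so a matched design is not shown. ThTC had the higher level for 14, 16 and 26 of the 36 genes in pairs 1, 2 and 3. Of all tested genes, 45.2%, 26.8% and 42.5% were higher with ThTC, in that order. Slc2a3, Ldhb, Slc16a3 and Bnip3l were higher with ThTC in 3 of 3 pairs, 4 of the 36 against 12% of all tested genes. Hk2, Hif1a and Ankrd37 were lower in 3 of 3, against 32.7% of all tested genes. With the pair as a block over these 6 libraries, the smallest adjusted p of the 36 genes in limma was 0.219, and 0 were called, while 8 genes outside the set were.

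The comparison of ThTC with sECM only sets the cells with their factors against sECM alone. The labels do not say whether the cells were given in sECM. If they were not, cells and sECM cannot be told apart. None of the 36 genes was called (0% of all genes), and 0 had an unadjusted p under 0.05, against 6.9% of all tested genes (1.54% higher, 5.36% lower). The mean was higher with ThTC for 17 and lower for 19 (44.4% of all genes higher). The median log2 fold change was -0.0037 and 0.04 with median-of-ratios scaling. Ddit4 (chromosome 10, 59949675 to 59951770), a stress-induced inhibitor of growth signalling, was at 37.95, 30.3 and 40.6 TPM in ThTC, 49.1, 44.0 and 51.3 TPM in sECM only, and 56.6, 42.3 and 32.3 TPM in GFP-TC. Its ThTC libraries lay below those of sECM only, as for 12.1% of all tested genes, but not below GFP-TC. The log2 fold change was -0.41 (SE 0.20, 95% interval -0.85 to 0.04, limma adjusted p = 0.687). Hif1a was likewise lower without overlap, and Pfkfb3, whose product makes an activator of phosphofructokinase, was higher without overlap (5.03% of all genes), at 21.9 ± 3.75 against 16.4 ± 2.03 TPM (SD, n = 3).

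Of the next genes by p, Bnip3l had a log2 fold change of 0.23 (SE 0.12) and Slc16a1 of -0.17 (SE 0.09) against sECM only, both with a limma adjusted p of 0.687 and overlapping libraries. Slc16a1 was at 82.2, 68.2 and 76.2 TPM in ThTC, 83.9, 80.7 and 89.7 TPM in sECM only, and 78.3, 90.1 and 87.6 TPM in GFP-TC. ThTC 2 and ThTC 3 were below every other library for this gene. Slc16a3 was at 21.5, 43.5 and 31.5 TPM in ThTC, 25.2, 19.9 and 24.2 TPM in sECM only, and 14.3, 30.6 and 26.8 TPM in GFP-TC. ThTC 2 was its highest library and GFP-TC 1 its lowest. Summed monocyte and macrophage markers, all 8 of which had higher means with ThTC than with either other group, were also highest in ThTC 2 (2256 TPM) and lowest in GFP-TC 1 (620.0 TPM). The sums ran from 1201 to 2256 TPM in ThTC, 620.0 to 1225 TPM in GFP-TC and 888 to 1108 TPM in sECM only. Lyz2 alone was at 1499.6 TPM in ThTC 2. By the mean log2 level after centring each gene, the 8 markers were highest in ThTC 3 (0.55), with 0.48 in ThTC 2 and -0.92 in GFP-TC 1. Their part in the level of Slc16a3 was not tested.

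The comparison of GFP-TC with sECM only sets the cells without the factors against sECM alone. Here too, cells and sECM cannot be told apart if the cells were given without it. This comparison shares libraries with both comparisons above, so the 3 are not independent. None of the 36 genes was called (0% of all genes) and 0 had an unadjusted p under 0.05, against 0.933% of all genes (0.499% higher, 0.434% lower). The mean was higher with GFP-TC for 15 and lower for 21, whereas 71.8% of all tested genes were higher, and the medians were -0.04 and 0.08. With median-of-ratios scaling 9 were higher (47.4% of all genes) and with quantile normalization 18 (48.3%). Without GFP-TC 3, 23 of the 36 were higher (58.4% of all genes), and 20 changed sign. Of the hypoxia response genes, 1 of 10 was higher with GFP-TC in the fit of all 9 libraries and 7 of 10 without GFP-TC 3, with medians of -0.18 and 0.07.

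Adm (chromosome 7, 110627657 to 110629820), which encodes the vessel-dilating peptide adrenomedullin, was at 4.27, 4.98 and 4.57 TPM in GFP-TC, 6.64, 5.76 and 6.43 TPM in sECM only, and 3.64, 6.76 and 4.49 TPM in ThTC. It was the 1 gene of the 36 whose GFP-TC and sECM only libraries did not overlap, against 1.08% of all genes in this direction, 3.15% in the other and 4.23% in either. The log2 fold change was -0.38 (SE 0.20, 95% interval -0.84 to 0.09, limma adjusted p = 0.997). Egln3, a prolyl hydroxylase gene that HIF itself raises, was at 18.1, 14.9 and 10.1 TPM in GFP-TC, 18.02, 14.9 and 20.1 TPM in sECM only, and 14.04, 15.4 and 9.95 TPM in ThTC. Its lowest libraries were ThTC 3 and GFP-TC 3, and its log2 fold change was -0.31 (SE 0.24), and -0.092 without GFP-TC 3. Pfkp, the platelet-type phosphofructokinase, was at 81.98, 126 and 98.5 TPM in GFP-TC, 83.9, 80.2 and 102.5 TPM in sECM only, and 94.2, 97.4 and 118.8 TPM in ThTC. GFP-TC 2 was its highest library. It had a log2 fold change of 0.19 (SE 0.17, limma adjusted p = 0.997) that was 0.02 without GFP-TC 2. For Egln3 and Pfkp the groups overlapped.

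**Figure D4:**
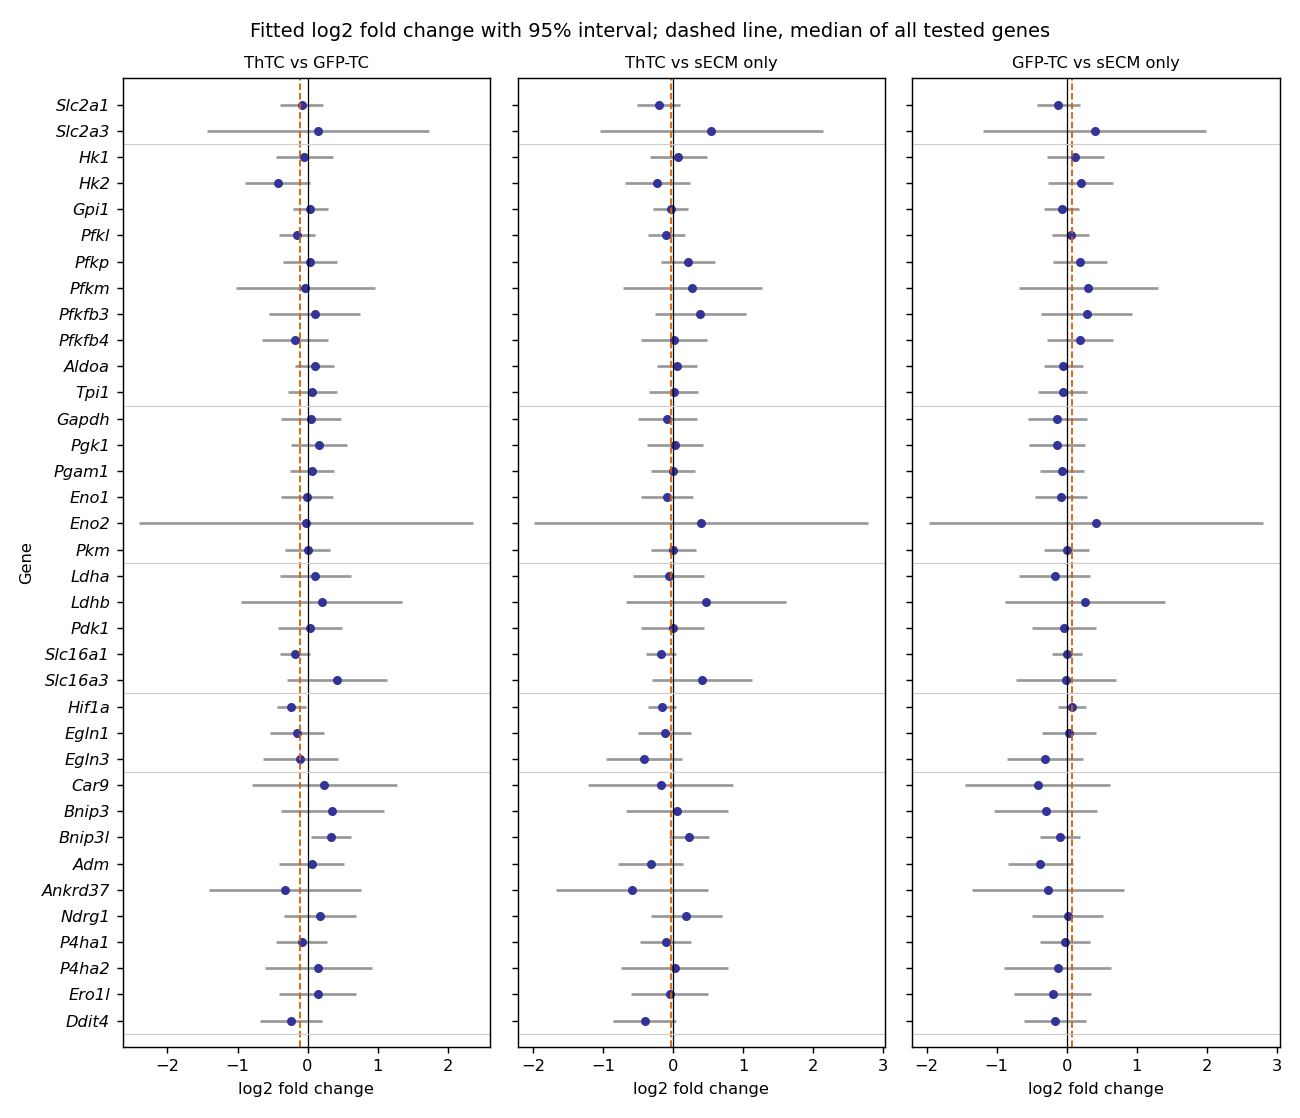
Fitted log2 fold change of each of the 36 genes (points) with its 95% interval (lines) in the 3 comparisons, and the median of all 13829 tested genes (dashed line). The intervals cross 0 for all genes except Bnip3l and Hif1a with ThTC against GFP-TC, and those of Eno2, Slc2a3, Ldhb and Ankrd37 are the widest.

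Further genes of both pathways did not pass the threshold either. Of 42 other genes of glycolysis and glucose handling 30 were tested, and of 40 other hypoxia and HIF genes 39 were tested; limma called 0 of them in each comparison. With ThTC against GFP-TC the medians were 0.0078 and -0.14, and 16 of 30 and 16 of 39 were higher. Narf, a lamin-binding protein gene counted among hypoxia-induced genes, was at 12.3, 12.04 and 13.9 TPM in ThTC, 16.3, 17.7 and 15.8 TPM in GFP-TC, and 13.5, 13.3 and 13.8 TPM in sECM only. GFP-TC was the highest group without overlap, with a log2 fold change of -0.36 (SE 0.11, limma adjusted p = 0.316) for ThTC against GFP-TC and 0.28 (SE 0.11, adjusted p = 0.997) for GFP-TC against sECM only. With median-of-ratios scaling these were -0.23 and 0.19, and with quantile normalization -0.27 and 0.15. Slc16a8, a lactate transporter gene of low level, showed the same order at 0.77 ± 0.48 TPM in ThTC, 1.93 ± 0.37 TPM in GFP-TC and 0.91 ± 0.17 TPM in sECM only (SD, n = 3).

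Among the HIF genes the smallest p values for ThTC against sECM only belonged to Angptl4 and Bhlhe40. Angptl4, an inhibitor of lipoprotein lipase, was at 6.46, 14.7 and 15.9 TPM in ThTC and 5.08, 5.54 and 6.86 TPM in sECM only, a log2 fold change of 0.89 (SE 0.32, limma adjusted p = 0.687). Bhlhe40, a transcriptional repressor, was at 123, 106 and 84.6 TPM in ThTC and 180.5, 119 and 163 TPM in sECM only, a log2 fold change of -0.55 (SE 0.20, limma adjusted p = 0.687). For both genes 1 ThTC library overlapped with sECM only. Vegfa, the vessel growth factor, was at 68.3, 58.3 and 63.0 TPM in ThTC, 79.3, 114 and 59.0 TPM in GFP-TC, and 76.3, 64.2 and 114 TPM in sECM only. Its SD was 5.01 TPM in ThTC, 27.7 TPM in GFP-TC and 26.0 TPM in sECM only, and the groups overlapped.

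The role groups also differed in how they lay against the brain score. The mean centred level of the 2 glucose transporters was highest in ThTC 3 (0.68) and GFP-TC 3 (0.49) and lowest in ThTC 1 (-0.61) and GFP-TC 1 (-0.52). Of the 2, only Slc2a3 was highest in both ThTC 3 and GFP-TC 3. Slc2a1 was at 151.3 TPM in ThTC 3, its median, and at 134 TPM in GFP-TC 3, its lowest library. The mean centred level of the 3 oxygen sensing genes was lowest in ThTC 3 (-0.34) and GFP-TC 3 (-0.27), with the other 7 libraries between -0.04 and 0.20. The 10 hypoxia response genes were lowest in GFP-TC 3 (-0.55), followed by ThTC 3 (-0.14), and lay between -0.08 and 0.28 elsewhere. The values of the 9 libraries are a description with no test, and libraries with a like brain score, such as GFP-TC 1 and ThTC 1, come from different treatments.

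**Figure D5:**
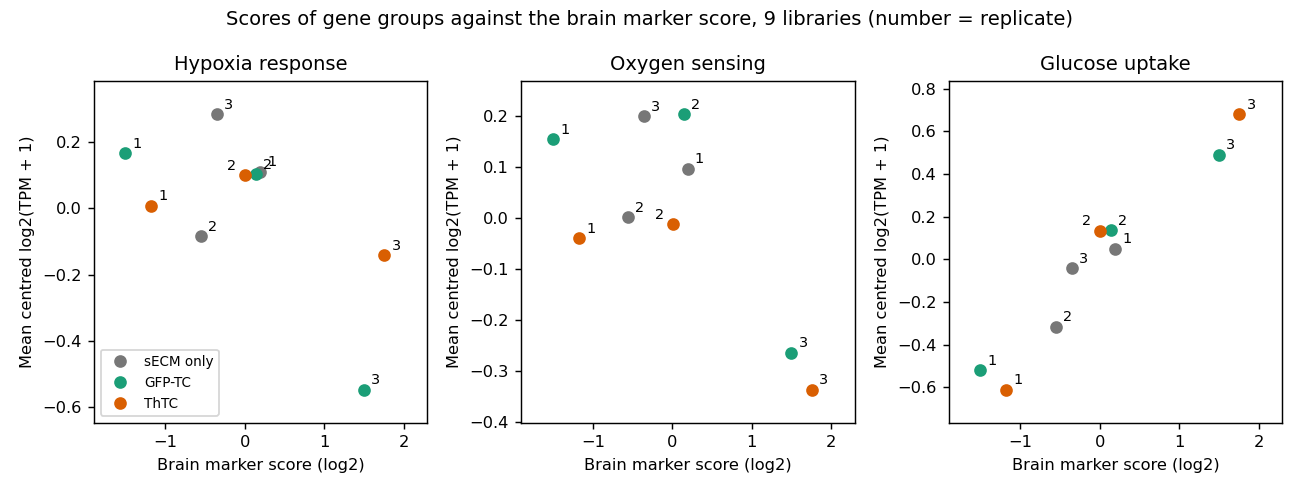
Mean centred log2(TPM + 1) of the hypoxia response, oxygen sensing and glucose uptake genes (vertical axes) against the brain marker score (horizontal axis), 1 point per library with its replicate number, coloured by group. GFP-TC 3 and ThTC 3 stand apart on the right, low in the first panels and high for glucose uptake, where Slc2a3 but not Slc2a1 was highest in both.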

How the data were processed

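Per the labels' protocols, 2 ug of total RNA from a column kit went into each library, and the platform was DNBseq. The authors deposited 1 table of TPM per library with values to 2 decimals, per the file headers. HISAT, GRCm38.p6 and mm10 are named without versions in the submitters' processing notes; the quantification tool, annotation and filters are not given in the sources used here. Because TPM keeps no depth, neither a count model nor a counting interval was used. The members, lists and tests were chosen with earlier results of these data known.

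Values were analysed as log2(TPM + 1), which understates changes of low genes. The 13829 genes that reached 1 TPM in 3 or more libraries were tested with limma 3.58.1 (moderated linear model with trend) in R 4.3.3, with all 9 libraries in 1 fit and Benjamini-Hochberg adjustment over all tested genes at 0.05. The fit was tested on simulated data. Isozyme log2 ratios, with 1 added to each TPM, were compared between groups with two-sided exact permutation tests, adjusted over 18. Plots used matplotlib 3.10.9 (Python 3.11.15).

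All 36 genes were accounted for, and values in every library were given for the 3 with the smallest p per comparison, the isozyme pairs, the widest and narrowest ranges, and Hif1a, Vegfa, Car9 and Egln3. From the other pathway lists the 2 with the smallest p per comparison were named. Values of Bnip3, P4ha2, Ero1l, Pfkfb3, Aldoc and the printed promoters were chosen after the data were seen. Gene positions and promoters came from RefSeq tables of GRCm38.p6, the build named in the notes; Ero1l was matched through its synonym Ero1a.

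As a check of pairing, deviations from the group means were correlated between libraries of the same number over all tested genes. For GFP-TC with ThTC the values were 0.74, 0.12 and 0.87, all over 0.1, and these libraries were treated as pairs. The labels give the numbers no meaning, and libraries of different numbers correlated too (0.61 for GFP-TC 3 with sECM only 1). sECM only libraries (-0.53, -0.14 and -0.19 with GFP-TC, -0.55, 0.28 and -0.21 with ThTC) were not treated as pairs. The main fit used no block. The replicate blocks, run as alternatives, grouped all libraries in the fit by number, also those of sECM only. No 2 libraries held the same values. Alternatives were other pseudocounts (0.1 and 0.5 TPM), no filter or a mean of 5 TPM, median-of-ratios scaling, quantile normalization, fits of the 6 libraries compared, a replicate block, the brain score as a covariate, leaving out each library and, chosen after seeing the data, leaving out both ThTC 3 and GFP-TC 3.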

Additional observations from a re-analysis of the deposited data

How the results depend on the processing

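The count of called genes among the 36 stayed at 0 in every alternative run, and the 9 tests of single genes given above, and those of Narf, Angptl4 and Bhlhe40, kept their sign in all 20. Filters, fits of the 6 libraries compared, replicate blocks and leaving out a library of the group not compared cannot change a fold change, so those alternatives do not test the sign. Over all tested genes the count of called genes was 0 with ThTC against GFP-TC except 8 with the replicate block over 6 libraries. Against sECM only it was 2 (ThTC) and 1 (GFP-TC) with the brain score as a covariate, and 1 for GFP-TC against sECM only with the replicate block over 9 libraries. Leaving out 1 library gave 0 calls with ThTC against GFP-TC and 0 to 1 in both comparisons with sECM only, with 1 when sECM only 1 was left out (both) or sECM only 2 (GFP-TC). The replicate block changed no call among the 36.

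The median log2 fold change of the 36 genes for ThTC against GFP-TC was 0.17 with median-of-ratios scaling, and -0.08 to 0.11 when 1 library was left out. Against sECM only the ranges were -0.06 to 0.02 (ThTC) and -0.11 to 0.04 (GFP-TC). Without ThTC 3 and GFP-TC 3 it was -0.04, -0.02 and 0.04, in that order, and 16, 16 and 23 genes were higher. The count of genes above the other 7 libraries in ThTC 3 and GFP-TC 3 was 4 with quantile normalization.

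Some differences of isozyme log2 ratios changed sign when 1 library was left out, and none of them passed a threshold. For GFP-TC against sECM only they ran from -0.056 to 0.28 for Hk2 over Hk1, from -1.17 to 0.14 for Slc2a1 over Slc2a3, from -0.67 to 0.19 for Pfkl over Pfkm, from -1.53 to 0.41 for Eno1 over Eno2, from -0.98 to 0.16 for Ldha over Ldhb and from -0.19 to 0.24 for Slc16a3 over Slc16a1. For ThTC against GFP-TC they ran from -0.90 to 0.42 for Slc2a1 over Slc2a3, from -0.57 to 0.31 for Pfkl over Pfkm, from -0.93 to 1.14 for Eno1 over Eno2 and from -0.69 to 0.63 for Ldha over Ldhb. For ThTC against sECM only they ran from -0.70 to 0.0595 for Pfkl over Pfkm, from -1.43 to 0.64 for Eno1 over Eno2 and from -1.04 to 0.19 for Ldha over Ldhb.

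TPM keeps no depth, so the sampling error of low genes such as Adm, Slc2a3 or Slc16a8 is unknown. Median-of-ratios scaling moved the median of all tested genes from -0.10 to 0.02 with ThTC against GFP-TC, so small shifts of the whole set are not separable from scaling. The cause of each change was not tested.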

Other observations

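Aldoc, the aldolase of astrocytes and Purkinje cells and no member of the set, was chosen after its values were seen. It was at 85.3, 45.3 and 45.7 TPM with sECM only, 15.5, 50.7 and 189.6 TPM with GFP-TC, and 42.9, 58.9 and 228 TPM with ThTC. ThTC 3 and GFP-TC 3 were its highest libraries and GFP-TC 1 its lowest. Of the 30 tested other genes of glycolysis and glucose handling, 11 (36.7%) lay above the other 7 libraries in both ThTC 3 and GFP-TC 3 and 0 below, against 23.9% and 4.14% of all tested genes. Those above included Pdk2, a pyruvate dehydrogenase kinase, and Slc16a7, a lactate transporter of neurons. Of the 39 tested other hypoxia and HIF genes, 10 (25.6%) lay below and 4 above, among them Hilpda, a lipid droplet protein, and Kdm3a, a histone demethylase, below, and Epas1, the HIF subunit of vessels, above. With quantile normalization the counts were 7 above and 4 below for the glucose genes and 18 (46.2%) below for the hypoxia genes, against 14.8% above and 22.5% below among all tested genes. The counts are a description with no test.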
